A study of Mus musculus with 12 samples.

Results

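Cgref1, Rap1gap, Tesc, Tpd52l1, Slc41a2, Hgfac, Slc16a7 and Elapor1 are 8 genes whose signal in the colon was lower in mice without Spdef than in at least 1 colon wild-type (WT) array. They were chosen by name from colon differences between genotypes, out of 11807 genes that the array could name, so their colon knockout (KO) values are given here as a description with no test. The choice used colon genotype differences and no stomach difference, though stomach results were known when it was made. Stomach genotypes were therefore tested over all genes, with no p for the set of members. Colon against stomach in mice that keep 1 Spdef allele was tested too, but it uses colon arrays that the choice may have used. The array, an Affymetrix mouse expression chip, held 10 probe sets for them: 2 each for Cgref1 and Tesc, and 1 for each of the other 6.

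The data were 12 arrays of total RNA from frozen whole tissue of C57BL/6 mice aged 16 weeks, untreated. There were 6 groups of 2 arrays: stomach and colon from WT mice, from mice heterozygous (HET) for Spdef and from Spdef KO mice. The labels do not say how the allele was made, or whether stomach and colon came from the same animals. Nor do they say whether arrays of 1 group come from separate animals. A p-value therefore reflects only how far these arrays spread, which may be technical. Levels are log2 of the array intensity plus 16 after quantile normalization, and a difference of 1 is a 2-fold change. A level under 6.53 (percentile 40 over the probe sets) was treated as dim, and a difference that reaches into that range is given as at least the distance to it. The precision is limited by the number of arrays, and a level cannot be set against that of another probe set.

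Spdef is an Ets-family transcription factor of secretory epithelia. In the intestine it acts downstream of Atoh1 and is known for the maturation of goblet cells, which fill with mucin and secrete it, and of Paneth cells. In the stomach it is known in the mucous cells of the antral glands. The 8 genes lie in different processes. Cgref1 encodes a secreted protein with EF hands, a calcium-binding fold, and Tesc (tescalcin) is an EF-hand protein that binds a sodium/proton exchanger. Rap1gap switches off the small GTPase Rap1, and Tpd52l1 belongs to a family of coiled-coil proteins of vesicle traffic. Slc41a2 carries magnesium and Slc16a7 carries monocarboxylates such as pyruvate. Hgfac is a serine protease that activates hepatocyte growth factor, and Elapor1 is a membrane protein of the late endosome and lysosome.

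Promoter letters are shown because the members were low together in the colon KO arrays and 3 of them share a short word near the start site. RefSeq promoter windows (build GRCm38.p6, from 250 bases before a start to 50 after it) matched 7 of the 8 genes through 14 windows; Slc16a7 was not matched. The word GACGTGG, or its reverse complement CCACGTC, lay in windows of Cgref1, Tesc and Slc41a2, that is in 3 of 7 genes, against 2.73% of all 27025 genes in the table (2.42% of 32851 windows), on either strand. Of the 14 member windows, 4 held it. The word was picked after these promoters had been read, so nothing is read from these shares. It is the core of sites known to be bound by Xbp1 and by the Creb3 family, to which Creb3l4 belongs. The site of Cgref1 is shown in 30 bases around its start, on the minus strand at chr5:30945465-30945494. Those of Tesc and Slc41a2 are shown in the 250 bases before the start, on the plus strand at chr5:118027493-118027742 and on the minus strand at chr10:83337818-83338067. All are written 5′ to 3′, and capitals mark the word.
Cgref1: gccgggagggcGACGTGGaatggccacgtg
Tesc: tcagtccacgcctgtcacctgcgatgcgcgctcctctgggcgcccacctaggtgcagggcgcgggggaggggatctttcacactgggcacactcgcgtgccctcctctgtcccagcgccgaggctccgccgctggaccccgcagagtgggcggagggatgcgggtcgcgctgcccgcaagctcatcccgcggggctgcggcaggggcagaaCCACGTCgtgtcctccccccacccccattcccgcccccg
Slc41a2: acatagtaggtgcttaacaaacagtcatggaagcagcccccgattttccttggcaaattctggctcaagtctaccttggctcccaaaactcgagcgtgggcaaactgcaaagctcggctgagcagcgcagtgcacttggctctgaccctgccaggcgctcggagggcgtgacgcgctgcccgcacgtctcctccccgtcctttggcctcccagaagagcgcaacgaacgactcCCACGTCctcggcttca
Counted from the start base as 0, the word lay from -3 to 3 in Cgref1, from -39 to -33 in Tesc and from -17 to -11 in Slc41a2. From a further listed start of Cgref1 the same site lies from -56 to -50. The Ets words CCGGAT, a core that Spdef binds, and CCGGAA, bound by most Ets factors, were found in 0 of the 7 genes on either strand, against 6.82% and 16.7% of all genes. The cAMP response element TGACGTCA was also in 0 of 7, against 2.03% of genes. A match or its absence describes these letters in this window and nothing about binding.

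The labels and the arrays were compared first. Stomach gland genes averaged 13.94 to 14.06 in the 6 stomach arrays and 5.06 to 5.33 in the 6 colon arrays. The colon array labelled WT 2 stood apart: its small-intestine markers averaged 12.24, where the rest of the colon gave 6.00 to 6.96, and its colon markers 6.05, where the rest gave 8.61 to 10.24. Car1, a colon carbonic anhydrase, was 6.65 in it against at least 13.50 elsewhere in the colon, and Fabp6, an ileal bile acid binder, was 14.42. Colon comparisons with WT are therefore given with and without the library labelled colon WT 2; without it the WT group is 1 array. The submitters' processing notes name RMA for both stomach KO arrays and for colon WT 1 and MAS5 for the other 9, although all 12 columns share 1 linear scale. In the stomach that note and the KO genotype cannot be told apart. In the colon the same holds for KO against WT 1 alone, since both colon KO arrays are noted MAS5. Spdef itself was 10.97 and 8.74 in colon WT, 10.27 and 9.81 in HET and 9.08 and 9.25 in KO; in stomach it was 8.63 to 9.19 in all 6 arrays. Whether its probe set lies in the deleted part is not known here, so these values check no label. Creb3l4, a transcription factor of the Creb3 family, was lower in KO in both tissues: 9.12 and 8.11 in colon WT, 9.30 and 9.02 in HET and 6.09 and 6.16 in KO, and in stomach 8.66 and 8.60, 8.54 and 8.54, and 5.20 and 5.84. The tissues are bulk samples, in which fewer cells of a type and less RNA per cell cannot be told apart.

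Cgref1 had the steadiest pattern of the 8 in colon. Its brighter probe set read 11.23 and 11.44 in WT, 11.15 and 11.19 in HET and 9.04 and 9.40 in KO. The 4 arrays with at least 1 Spdef allele lay close together, and both KO arrays lay below all of them. In the deposited intensities the same probe set was 2268 and 2864 in WT, 2244 and 2319 in HET and 519 and 680.1 in KO. KO was lower than WT by 4.33-fold, a log2 difference of -2.12 (SE 0.18), and differed from HET by -1.95 (SE 0.18). Without colon WT 2 the KO minus WT difference was -2.01, or 4.03-fold. The other probe set of Cgref1 read 11.45 and 11.58 in WT, 10.83 and 10.75 in HET and 8.56 and 9.42 in KO. It put both HET arrays below both WT arrays, which the brighter probe set did by a smaller margin.

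Tesc, the other EF-hand gene, read 8.66 and 7.07 in colon WT, 8.89 and 8.47 in HET and 6.65 and 6.13 in KO. Both KO arrays lay below all 4 others, but colon WT 2 lay nearer to KO than to HET. The KO mean is dim, so KO was lower than HET by at least 2.15 on the log2 scale (4.45-fold), lower than WT by at least 1.33, and lower than WT 1 alone by at least 2.13. Its other probe set had the same order of groups, at 7.79 and 6.14, 7.20 and 6.99, and 5.46 and 4.72.

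Rap1gap read 10.29 and 7.78 in colon WT, 10.17 and 9.95 in HET and 6.92 and 7.60 in KO. The KO arrays were again the lowest pair, yet colon WT 2 lay just above the higher of them. KO minus HET was -2.80 (SE 0.62), KO minus WT was -1.77 (SE 0.62), and KO against WT 1 alone was -3.03, an 8.17-fold difference. Tpd52l1 read 8.35 and 6.41 in WT, 7.85 and 8.39 in HET and 6.06 and 5.71 in KO. Both KO arrays and colon WT 2 were dim. KO was lower than HET by at least 1.59 (3.01-fold), than WT by at least 0.85 and than WT 1 by at least 1.82.

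The transporters differed from each other in where colon WT 2 lay. Slc41a2 read 8.33 and 9.41 in WT, 8.15 and 8.24 in HET and 6.25 and 6.79 in KO, so that WT 2 was the highest colon array. KO was lower than WT by at least 2.34 on the log2 scale (5.05-fold), than WT 1 by at least 1.80 and than HET by at least 1.67. Slc16a7 read 7.93 and 6.22 in WT, 8.03 and 8.16 in HET and 6.38 and 6.80 in KO. Here WT 2 was the lowest of the 6, though WT 2 and KO 1 were both dim. WT and KO overlapped, and KO minus WT was -0.48 (SE 0.45). KO minus HET was -1.50 (SE 0.45), and against WT 1 alone it was -1.33.

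Hgfac and Elapor1 also had colon WT 2 as their lowest colon array. Hgfac read 11.72 and 9.05 in WT, 11.24 and 11.34 in HET and 9.71 and 10.17 in KO, and Elapor1 read 11.78 and 9.15, 11.44 and 11.12, and 10.25 and 10.47. For both, WT spanned KO and the KO minus WT difference was small beside its error, at -0.45 (SE 0.64) and -0.11 (SE 0.64). Against WT 1 alone it was -1.78 for Hgfac and -1.42 for Elapor1, and against HET -1.35 and -0.92. Leaving out WT 1 instead turned the sign for Hgfac (0.88), Slc16a7 (0.37) and Elapor1 (1.21), and Elapor1 was at 0.00 without KO 1.

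**Figure D1:**
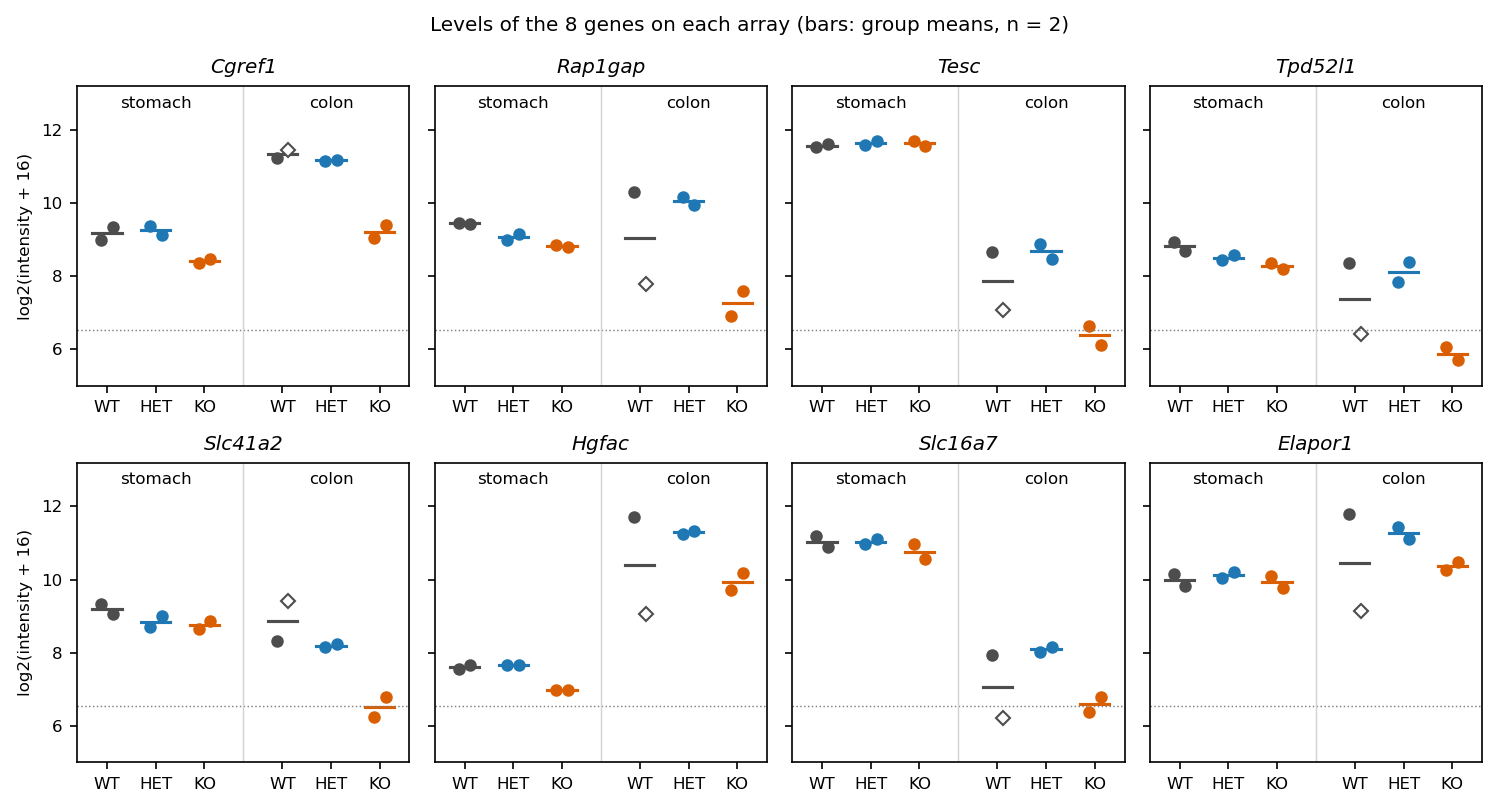
Level of each of the 8 genes in every array, as log2 of intensity plus 16 after quantile normalization (vertical axes), by tissue and genotype (horizontal axes); points are arrays, bars are means of 2 arrays, the open diamond is colon WT 2 and the dotted line is the dim level of 6.53. In colon both KO arrays lie below both HET arrays for all 8 genes, while the arrays of a gene span 0.18 to 1.02 in stomach.

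Over the 8 genes, both KO arrays lay below both WT arrays in 5, against 10.6% of all 7913 genes kept in colon, and below both HET arrays in 8, against 15.1%. These shares describe the comparisons that chose the genes, or that use the same KO arrays, and nothing is read from them. Both KO arrays lay below WT 1 in all 8, where 28.4% of genes kept in colon did. The members were chosen from colon differences of this kind, so nothing is read from this share either. The median KO minus WT difference was -1.48 over the members and 0.06 over all genes, and without colon WT 2 it was -1.91. KO minus HET had a median of -1.81, against 0.02 over all genes. All of these medians use differences as measured, dim levels included. Tesc, Tpd52l1 and Slc41a2 had dim colon KO means, and their at-least values given above are smaller. The member medians therefore reach into the dim range. With a larger amount, 64, added to the intensity before log2 was taken, they were -1.08 (KO minus WT) and -1.46 (KO minus HET).

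In the brighter or only probe set of each gene, HET levels in colon lay near those of WT 1. There the HET mean lay between -0.50 (Elapor1) and 0.17 (Slc16a7) of the WT 1 level for the 8 genes. The other probe sets of Cgref1 and Tesc lay further below it. Their HET means were 10.79 and 7.10, against 11.45 and 7.79 in WT 1. Colon WT 2 lay below both HET arrays in 6 genes and above both KO arrays in 5. It was the lowest colon array in 3 of 8 members, where it was the lowest in 34.1% of all genes. The median HET minus WT difference was 0.82 over the members and changed sign to -0.18 without WT 2, so the colon gives no direction for the loss of 1 allele. HET lay below both WT arrays for Cgref1 (-0.16, other probe set -0.72) and Slc41a2 (-0.67), that is 2 of 8, against 15% of all genes. Without WT 2 the HET means of the brighter Cgref1 probe set and of Slc41a2 were 0.06 and 0.13 below WT 1.

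**Figure D2:**
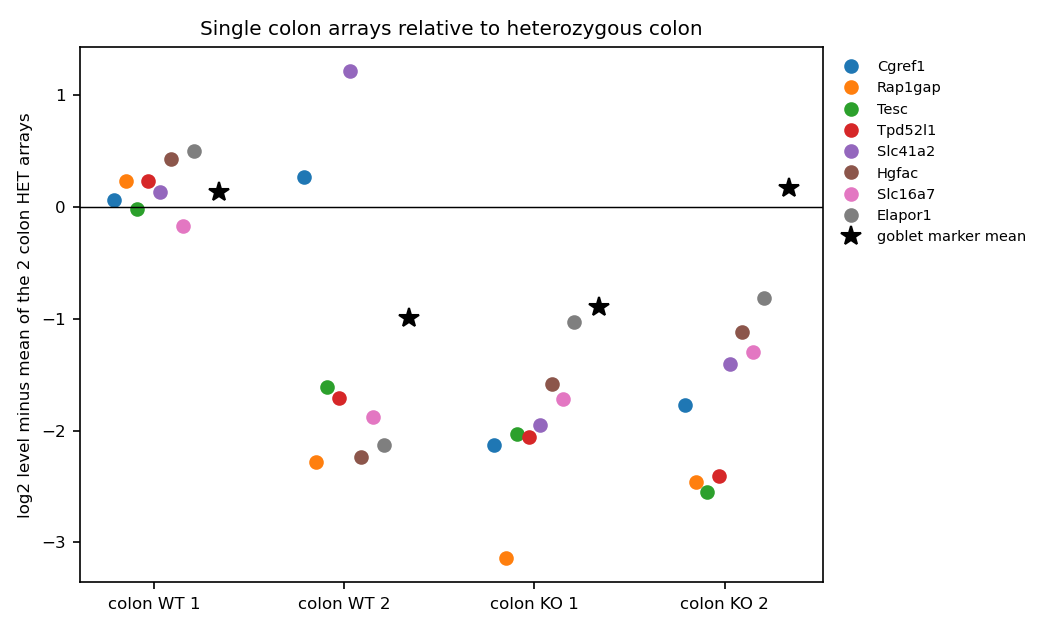
Colon WT and KO arrays (horizontal axis) of each of the 8 genes (coloured points) and the mean of the goblet markers (stars), as the log2 level minus the mean of the 2 colon HET arrays (vertical axis). Each gene is shown by its brighter or only probe set. WT 1 lies between -0.17 and 0.50 of HET for the 8 genes and WT 2 between -2.28 and 1.21. The KO arrays lie between -3.14 and -0.81. The goblet marker mean is 0.13 in WT 1, -0.99 in WT 2, -0.89 in KO 1 and 0.18 in KO 2. Its WT 2 value rests largely on 1 marker, Retnlb.

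The mean of the goblet-cell markers was low with most members in colon WT 2 and KO 1, and not in KO 2. The 9 goblet markers on the array averaged 13.18 and 12.05 in colon WT, 12.93 and 13.16 in HET and 12.15 and 13.22 in KO. In KO 2 this mean was the highest of the 6 colon arrays (0.18 above HET, against -0.89 in KO 1 and -0.99 in WT 2), while the 8 members there lay between -2.56 and -0.81 of the HET mean. Tff3, a goblet peptide, was 13.64 to 13.90 in all 6 arrays. Retnlb, a goblet cytokine, was 6.62 in WT 2, 10.40 in KO 1 and 14.21 in KO 2, against 13.71 and 14.06 in HET. The low mean of WT 2 rests largely on Retnlb. In WT 2, Fcgbp, Clca1 and Spink4 lay within the HET range, and Tff3 and Zg16 lay above it. Agr2 (13.29), Atoh1 (9.72) and Sytl2 (9.05) lay below it. Other lists also differed between the KO arrays. Exocrine pancreas genes averaged 5.58 in KO 1 and 7.45 in KO 2, and proliferation genes 9.07 and 9.70 (8.42 to 8.60 in WT and HET). Adipose genes averaged 8.53 and 6.75, against at least 9.07 in WT and HET. Colon epithelium and position genes averaged 8.61 in KO 1 and 10.24 in KO 2, and 8.88 and 9.88 in HET. Among them Hoxb13 was 4.31 and 10.81 in KO and 4.39 and 8.24 in HET. The part of these lists in the members' values was not tested.

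In the stomach no member passed the test between KO and WT (limma, Benjamini-Hochberg adjusted p under 0.05). That holds for 0 of 8 members, against 0.0127% of the 7858 genes tested, and 1 member, Cgref1, had an unadjusted p under 0.05, as did 289 genes in all. All 8 were above the dim level in all 6 stomach arrays. KO minus WT was negative in 7 of 8 members, against 48% of all genes, with a median of -0.48 against 0.01. Both KO arrays lay below both WT arrays in 5 members, against 16.7% of all genes. These counts carry no p, since stomach results were known when the members were chosen. The error of each gene pools the spread in all 6 groups, the colon WT pair included. Without colon WT 2 the SEs of the 8 members ran from 0.17 to 0.22, against 0.19 to 0.64 with it, and the differences were the same. Then 4 members had an unadjusted p under 0.05, a level that 5.78% of genes reached against 3.68% with all arrays, and 0 passed. Without colon WT 1 it was also 4 (5.8% of genes) and with the stomach fitted alone 5 (7.53%), again with 0 passed.

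Cgref1 read 9.0 and 9.34 in stomach WT, 9.37 and 9.13 in HET and 8.36 and 8.46 in KO. Both KO arrays lay below the 4 others. KO minus WT was -0.76 (SE 0.19, 95% interval -1.18 to -0.34, adjusted p = 0.646, unadjusted p = 0.00239). KO minus HET was -0.84 (SE 0.19, 95% interval -1.26 to -0.43, adjusted p = 0.9999, unadjusted p = 0.00123). Its other probe set had the same order, at 8.96 and 9.26, 9.19 and 9.35, and 8.49 and 7.69, with KO minus WT at -1.02 (SE 0.31, adjusted p = 0.957).

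Hgfac read 7.56 and 7.67 in stomach WT, 7.65 and 7.66 in HET and 6.99 and 6.98 in KO, a difference of -0.63 (95% interval -2.06 to 0.79). Both KO arrays lay below the 4 others, and HET lay within the WT range. The SE was 0.64 with all arrays, 0.17 without colon WT 2 (adjusted p = 0.565) and 0.20 with the stomach fitted alone (adjusted p = 0.493). Liver genes averaged 10.25 and 7.83 in stomach WT, 7.90 and 9.28 in HET and 6.66 and 6.29 in KO; Hgfac is a liver gene, and the part of this in its value was not tested. Squamous epithelium genes were also low in KO, at 4.83 and 5.12 against 6.55 to 10.12 in the other stomach arrays.

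Rap1gap, Tpd52l1 and Slc41a2 had both HET arrays below both WT arrays in stomach. Rap1gap read 9.46 and 9.43 in WT, 8.99 and 9.14 in HET and 8.86 and 8.80 in KO, and Tpd52l1 read 8.94 and 8.69, 8.43 and 8.59, and 8.36 and 8.21. Slc41a2 read 9.32 and 9.06, 8.69 and 9.0, and 8.66 and 8.87. KO minus WT was -0.62 (95% interval -2.0 to 0.76), -0.53 (-1.65 to 0.58) and -0.43 (-1.16 to 0.31), and none passed. HET minus WT was -0.38, -0.31 and -0.35, with adjusted p = 1 for each. These 3 of 8 compare with 18.5% of all genes that had HET below WT without overlap, and 0 members and 0% of genes passed there (178 genes at an unadjusted p under 0.05).

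In Tesc and Elapor1 the stomach genotypes overlapped, and in Slc16a7 KO overlapped WT and lay just below HET. Tesc read 11.52 and 11.62 in WT, 11.59 and 11.70 in HET and 11.70 and 11.56 in KO, a KO minus WT difference of 0.06 (95% interval -0.88 to 1.0). Slc16a7 read 11.19 and 10.88, 10.96 and 11.12, and 10.96 and 10.55, a difference of -0.28 (-1.27 to 0.71). Elapor1 read 10.14 and 9.83, 10.03 and 10.21, and 10.09 and 9.78, a difference of -0.04 (-1.46 to 1.37).

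Between stomach KO and HET, 0 of 8 members passed, against 0.0127% of genes. Cgref1 was the 1 member with an unadjusted p under 0.05, a level that 151 genes reached. The difference was negative in 8 members, from -0.84 (Cgref1) to -0.01 (Tesc), with a median of -0.23. Both KO arrays lay below both HET arrays in 5 members, against 13.5% of genes, and below all 4 WT and HET arrays in 4 (Cgref1, Rap1gap, Tpd52l1 and Hgfac), against 6.18%. KO minus WT and KO minus HET share the KO arrays.

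**Figure D3:**
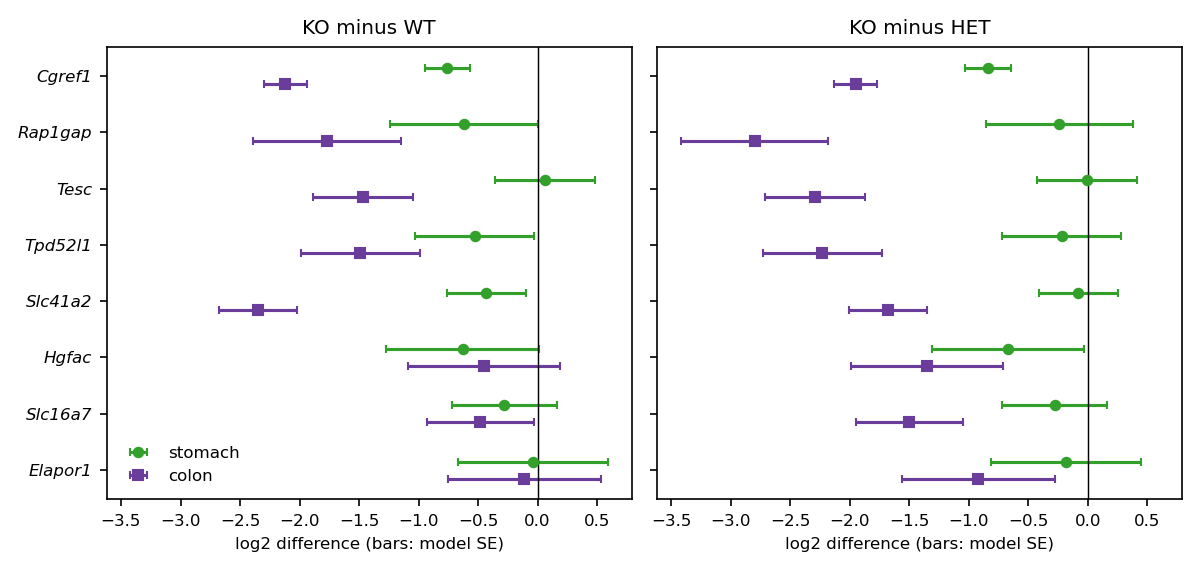
KO minus WT (left) and KO minus HET (right) differences of each of the 8 genes in stomach (green circles) and colon (purple squares, with all 6 colon arrays), in log2 units on the horizontal axes; bars are the model's SE. Against WT, stomach differences run from -0.76 (Cgref1) to 0.06 (Tesc) and colon differences from -2.35 (Slc41a2) to -0.11 (Elapor1). All points are differences as measured. Tesc, Tpd52l1 and Slc41a2 have dim colon KO means, and their at-least values given in the text are smaller than the plotted ones.

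The normal level of the genes in each tissue was compared between the HET arrays of colon and stomach; the contrast shares the colon HET arrays, but no KO or WT array, with the colon differences given above. Cgref1 and Hgfac were higher in colon than in stomach, and Tesc and Slc16a7 were lower, so 4 of 8 passed (limma), against 22% of the 8452 genes tested. Cgref1 was higher in colon HET by 1.92 (SE 0.18, 95% interval 1.51 to 2.34, adjusted p = 0.0001), and its other probe set by 1.52 (adjusted p = 0.00746). Hgfac was higher by 3.64, or 12.4-fold (95% interval 2.19 to 5.08, adjusted p = 0.0035). Tesc was lower in colon by 7.79-fold (difference -2.96, 95% interval -3.91 to -2.01, adjusted p = 0.00107), and its other probe set differed by -3.14 (adjusted p = 0.00116). Slc16a7 was lower by 7.68-fold (difference -2.94, 95% interval -3.95 to -1.94, adjusted p = 0.00153).

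The other members did not pass: Elapor1 (1.16, adjusted p = 0.232), Rap1gap (1.0, adjusted p = 0.288), Slc41a2 (-0.65, adjusted p = 0.196) and Tpd52l1 (-0.39, adjusted p = 0.62). With colon WT 1 or colon WT 2 left out, or with the 4 HET arrays fitted alone, 7 of 8 passed, where 30.8%, 30.9% and 37.2% of all genes did. The members low in colon KO include genes brighter in colon HET and genes brighter in stomach HET.

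Genes of the members' pathways were listed as well. Of 82 listed relatives in 8 lists, 53 were on the array. In colon KO against WT, 42 were tested and 0 passed (limma), where 0.0505% of all genes did; 4 had an unadjusted p under 0.05, and the median was 0.02. None of 41 passed without colon WT 2, where 0.307% of genes did, and 8 of 40 without colon WT 1, where 12.5% did. In stomach 41 were tested, 0 passed, 3 had an unadjusted p under 0.05, and the median was 0.05.

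In brackets after each colon difference stands the value without colon WT 2. Mcfd2, a secretory EF-hand protein that pairs with the cargo receptor Lman1, differed in colon by -0.54 [-0.28] (adjusted p = 0.443) and Lman1 by -0.16 [-0.17]. Among Rap1 regulators, 0 of 8 passed, and Sipa1, another Rap1 inactivator, was dim in both groups. Rassf5, a Rap1 effector, was higher in KO by at least 0.47 with a dim WT mean, and did not pass (limma, adjusted p = 0.574). As measured, dim levels included, it differed by 0.56 [0.95]. Tpd52, the founding member of its family, differed by -0.29 [-0.39] (unadjusted p = 0.0324, adjusted p = 0.421) and Tpd52l2 by 0.05 [-0.08]. Magnesium transport had 0 of 8 past the test, with Trpm6, a magnesium channel, at -0.75 [0.12] and Nipal2 at 0.72 [-0.55]. Monocarboxylate transport had 0 of 6, with the lactate carrier Slc16a1 at 0.77 [0.22] and Slc5a8 at 0.40 [0.38].

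Of the sodium/proton exchange and calcineurin list 0 of 5 passed, with the exchanger scaffold Slc9a3r1 at -0.69 [-0.17] and the calcineurin subunit Ppp3cb at 0.35 [0.47]. The hepatocyte growth factor list had 0 of 7, with the membrane protease Tmprss2 at 0.50 [-0.27]; Hpn, another, was dim in both groups. The endosome and granule list had 0 of 4, with the sorting receptors Sort1 at 0.45 [0.12] and M6pr at 0.16 [0.03]. Between tissues in HET, 6 of 45 tested relatives were higher in colon, where 10.1% of genes were, and 5 were lower, where 11.9% were. The higher ones included Slc5a8 (by at least 4.26), Trpm6 (by at least 0.39) and Slc16a1 (1.33), and the lower ones Bhlha15 (-2.98), a secretory-cell transcription factor, and the protease gene Hpn (by at least 1.62). Without colon WT 1, 19 of 45 passed in either direction, where 30.8% of genes did, and without colon WT 2 19 of 44, where 30.9% did; with the HET arrays fitted alone 24 of 45 passed, where 37.2% did.

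The genes with the colon pattern most like that of Cgref1 were found by the root mean square difference between centred log2 levels, among all 7912 other genes kept in colon. Over the 6 colon arrays the closest was another member, Slc41a2, at 0.33, where the median gene was at 1.02. The closest genes outside the members were St6galnac1 (0.40), a mucin sialyltransferase, Mrap (0.49), Klhdc8a (0.54), Creb3l4 (0.58) and the fatty acid receptor Cd36 (0.59). All of them but Cd36 had a dim colon KO mean, and Mrap was also dim in WT 1 and HET 1, so their distances reach into the dim range. Among the members, Slc41a2, Tesc and Tpd52l1 had dim colon KO means too, and the same limit holds for their distances here and below. Tesc ranked 76, Tpd52l1 119, Slc16a7 753, Rap1gap 1653, Hgfac 5447 and Elapor1 6807.

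Without colon WT 2 the order of the members changed. Over the other 5 arrays Slc41a2 (0.14), Hgfac (0.27) and Slc16a7 (0.27) ranked 1, 2 and 3, Tpd52l1 5, Tesc 7, Rap1gap 18 and Elapor1 21. The closest genes outside the members were then Nupr1 (0.31), Slc12a8 (0.35), Adam18 (0.36), Rhbdl3 (0.38) and Tpsg1 (0.38), none of which was among the first 5 with all arrays. Adam18 and Rhbdl3 had dim colon KO means. Of these 10 neighbours 5 were tested in stomach, where Creb3l4, dim in KO, was lower in KO than in WT by at least 2.10 (adjusted p = 0.0228). KO minus WT was -0.81 for Slc12a8, -0.45 for Cd36 and 0.29 for Nupr1, and Klhdc8a was dim in KO. Creb3l4 alone passed; the other 5 neighbours were too dim in stomach to test. The likeness is a description over 5 or 6 arrays that share genotype groups. The members were chosen from differences between these colon groups, so their closeness to Cgref1 follows in part from the choice. Nothing is read from their ranks.

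**Figure D4:**
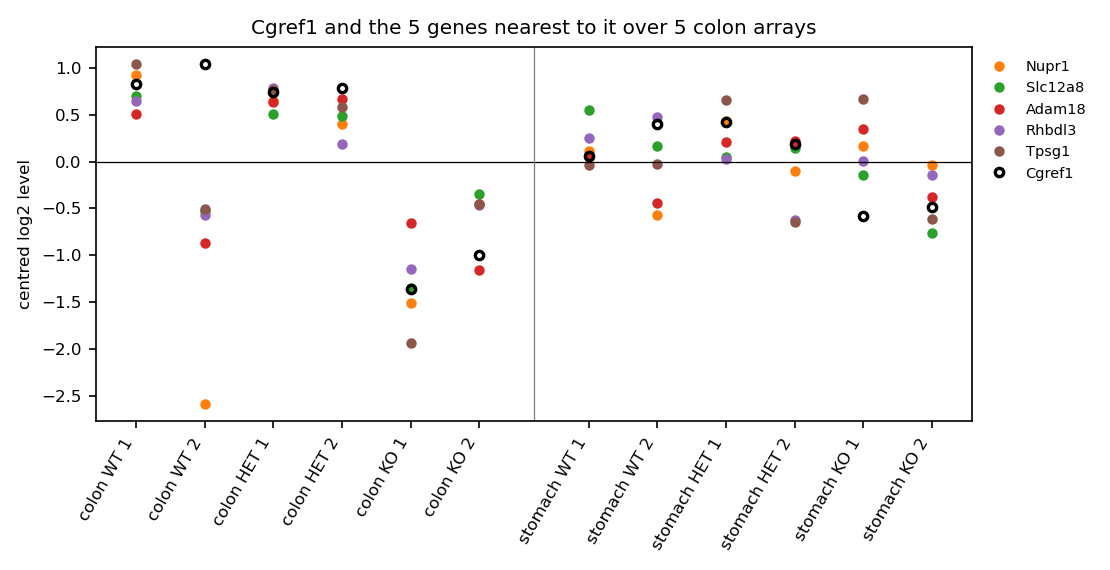
Cgref1 (open circles) and the 5 genes nearest to it over the 5 colon arrays without WT 2 (coloured points), as log2 levels centred, separately for each tissue, on the gene's own mean (vertical axis; colon WT 2 stays out of the colon mean), for each of the 12 arrays (horizontal axis). The 6 genes are low in both colon KO arrays, and in colon WT 2 Cgref1 alone is above its mean.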

How the data were processed

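Per the labels' protocols, RNA was isolated with TRIzol from frozen tissue and hybridised to Affymetrix mouse arrays. The deposited table holds linear intensity values per probe set, with 1 column for each of the 12 arrays. Per the submitters' processing notes, 9 arrays carry MAS5 and 3 carry RMA, with no version given. All columns had a trimmed mean of 500.07 to 500.09 (2% trimmed at each end), so each array had been scaled by the authors to 1 target and no depth is defined.

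Of 22716 probe sets, 90 controls were left out; 18003 had 1 gene, 287 several and 4336 none in the platform table. Symbols were updated by gene ID for 17977, which gave 11807 genes. Log2 values of the deposited intensity plus 16 were quantile normalized. Each gene was taken from the probe set with the highest mean and kept in a tissue if at least 2 arrays reached 6.53 (intensity 76.5). limma 3.58.1 in R 4.3.3 was fitted over all 12 arrays with 1 mean per group, a trended eBayes and Benjamini-Hochberg adjustment over all kept genes. The test was checked on simulated data.

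The members and lists were chosen with earlier results of these data known. Named genes were the members with every probe set, Spdef, Creb3l4, the 5 nearest neighbours of Cgref1 with and without colon WT 2, and per relatives list those past the threshold and the 2 with the largest colon difference. Further marker lists used in checks gave these colon ranges: enteroendocrine 8.85 to 9.91, B and plasma cells 7.13 to 8.76. Alternatives were the offset, filter, normalization, probe set rule, trend, arrays in the fit, a replicate block and each array left out. Figures were drawn with matplotlib 3.10.9.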

Additional observations from a re-analysis of the deposited data

How the results depend on the processing

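No member passed the KO minus WT test in stomach under any of the 22 alternatives run. With an offset of 64 the median colon difference of the members was -1.46 for KO minus HET and -1.08 for KO minus WT. Colon medians here are of differences as measured, dim levels included. Fitting each tissue alone gave 7 members past the tissue test in HET, 7 genes in stomach KO minus WT, 2 in colon KO minus WT and 3140 between tissues. Testing every probe set gave 8 genes in colon and 3032 between tissues; an offset of 1 gave 1 gene in colon, and an offset of 64 gave 0 in stomach. The labels do not say whether same-numbered arrays form pairs. Deviations from the group means correlated at -0.321 to 0.286 between same-numbered arrays, which cannot settle it. With the replicate block 0 genes passed in stomach KO minus WT, and 4 members still passed between tissues. A crossed pairing, added after seeing the data, left 0 members in stomach HET minus WT and gave 3 genes in colon KO minus WT. Leaving out each array in turn, 4 to 7 members passed between tissues, and the colon medians ran from -1.91 to -0.52 (KO minus WT), from -1.99 to -1.59 (KO minus HET) and from -0.18 to 1.79 (HET minus WT), with the extremes of the first and last set by colon WT 1 and WT 2. Members with no overlap in colon ran from 5 to 8, relatives past the test in colon from 0 to 8, and genes past the test from 0 to 10 in stomach, from 3 to 977 in colon (977 without WT 1, 24 without WT 2, 34 without KO 1) and from 946 to 2596 between tissues. Single members changed sign: Tesc (-0.01 to 0.13) and Elapor1 (-0.20 to 0.11) in stomach, and Hgfac (-1.78 to 0.88), Slc16a7 (-1.33 to 0.37) and Elapor1 (-1.42 to 1.21) in colon KO minus WT. The adjusted p of Cgref1 in stomach KO minus WT ran from 0.259 to 1 over the alternatives, and that between tissues from 4.41e-05 to 0.002. The causes were not tested. With no detection calls used here, signal over background is judged only by the dim level.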
